A study of Mus musculus with 4 samples.

Results

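Probe sets for 10 hypoxia-inducible genes were followed in mouse fibroblasts with and without SIN1. The genes were Hif1a, Egln3, Vegfa, Adm, Bnip3, Pdk1, P4ha1, P4ha2, Ero1l and Ndrg1. They were represented by 18 of the 45037 probe sets tested, chosen by probe set number from a list that pairs each number with its gene. The array table holds no gene names, and no annotation used here pairs these numbers with genes, so the names are those of that list. The series comprised 4 arrays: 2 with RNA of wild type cells and 2 with RNA of SIN1 KO cells, in which the gene for SIN1 was ablated. SIN1, encoded by Mapkap1, is a subunit of mTOR complex 2, the kinase complex that phosphorylates AKT and the related kinase SGK1. Both genotypes were C57BL/6 cells labelled murine epithelial fibroblasts, kept in DMEM under standard culture conditions, and the labels name no low-oxygen treatment, no age and no other agent. The labels call the SIN1 KO cells metabolically altered. They do not say how the gene was ablated, nor whether the replicates are independent cultures, lines or embryos. Every p-value and interval rests on the spread between 2 arrays per genotype, combined in the test with that of all probe sets. This spread may therefore be technical only.

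Cells sense oxygen through the transcription factor HIF-1. Its alpha subunit, the product of Hif1a, is hydroxylated by prolyl hydroxylases of the Egln family when oxygen is present, bound by VHL and degraded. When oxygen is scarce the subunit accumulates, pairs with ARNT and binds hypoxia response elements, short sites with the core ACGTG or GCGTG, in genes for blood vessel growth, glucose use, mitochondrial turnover and collagen processing. The level of Hif1a mRNA is therefore only one of several controls on HIF-1, and signalling through mTOR and AKT is another that is known in many cell types.

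Hypoxia response element cores were looked up in the RefSeq promoter windows (GRCm38.p6) of these genes to show the kind of site the family shares. A window spans 250 bases before to 50 after a start site. 9 of the 10 genes matched an entry, with 11 windows in all since Vegfa and Pdk1 have 2 start sites each, and the gene listed here as Ero1l carries the RefSeq symbol Ero1a. Ndrg1 was not matched. ACGTG was found on either strand in 7 of the 11 windows, and in 19.6% of all 32851 windows in the RefSeq table. GCGTG was found in 7 of the 11, and in 32.4% of all windows. At least 1 core of either kind lay in 9 of the 11, at least 1 window for each of the 9 genes, and in 43.8% of all windows. The windows compared were not matched for base composition, and enrichment was not tested. ACGTG can also form part of the palindrome CACGTG, an E-box bound by other factors, which lay in the Bnip3 and Hif1a windows and in 7.15% of all windows. The stretches below are those of the genes whose genotypes did not overlap on any of their probe sets, followed by Adm, whose difference had the opposite sign. Each is written 5′ to 3′ on the gene's own strand and lies before the start site, with base -1 next to it. Capitals mark a core on the gene's strand or, as its reverse complement (CACGT for the first core and CACGC for the second), on the other strand.
Bnip3, chr7:138909522-138909638, minus strand, bases -132 to -16: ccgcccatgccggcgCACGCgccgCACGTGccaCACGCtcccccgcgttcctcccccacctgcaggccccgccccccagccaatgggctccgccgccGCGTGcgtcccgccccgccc
Hif1a, chr12:73907717-73907816, plus strand, bases -150 to -51: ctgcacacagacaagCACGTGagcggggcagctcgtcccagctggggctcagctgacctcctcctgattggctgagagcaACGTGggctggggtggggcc
Egln3, chr12:54204084-54204118, minus strand, bases -244 to -210: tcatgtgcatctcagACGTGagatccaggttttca
P4ha1, chr10:59323118-59323295, plus strand, bases -178 to -1: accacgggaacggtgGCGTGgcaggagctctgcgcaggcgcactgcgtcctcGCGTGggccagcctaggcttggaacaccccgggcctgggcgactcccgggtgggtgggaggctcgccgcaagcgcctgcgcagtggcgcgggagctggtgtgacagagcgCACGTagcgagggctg
Adm, chr7:110627552-110627622, plus strand, bases -105 to -35: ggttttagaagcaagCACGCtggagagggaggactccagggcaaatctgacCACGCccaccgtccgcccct
The Bnip3 stretch held 5 core matches, with the pair on opposite strands at -108 and -107 forming the E-box. The Hif1a stretch held 3, of which 2 form its E-box, P4ha1 held 3, Adm 2 and Egln3 1. An E-box is 1 site matched on both strands, so Bnip3 and Hif1a hold fewer separate sites than matches. A match shows only that these letters are present. No binding was measured.

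**Figure D1:**
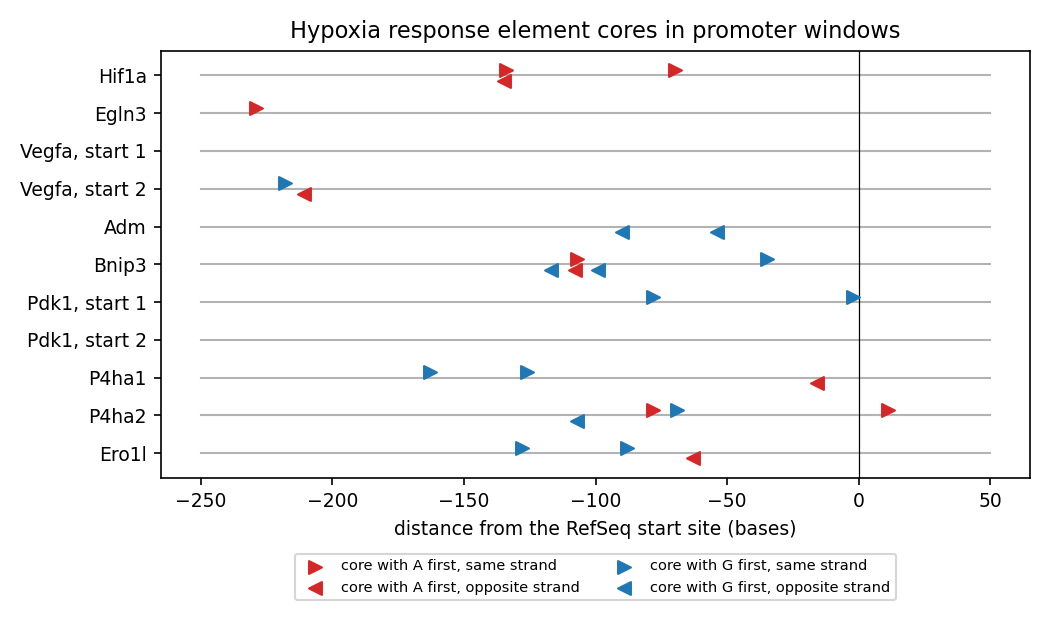
Positions of hypoxia response element cores in the 11 RefSeq promoter windows (grey lines) of 9 genes, on an axis of bases from the start site. Colour gives the first letter of the core and the direction of the triangle its strand. Bnip3 carries 5 matches, of which 2 are 1 E-box matched on both strands, while the first Vegfa window and the second Pdk1 window carry 0.

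Array medians were between 4.23 and 4.32 on the log2 scale. The background of an array was taken as its highest Bacillus subtilis control probe set, which lay between 3.75 and 4.27 and was highest on SIN1 KO replicate 2. The hybridisation controls, which are added after the RNA is prepared, were on average 0.32 lower on the SIN1 KO arrays. Scaling the arrays to them moves the median difference of all probe sets from 0.04 to 0.36. Mapkap1, fibroblast markers and the other genes of the HIF pathway were not analysed here, because no probe set could be tied to them, so neither the genotype nor the cell type labels were checked against the data.

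Most hypoxia-inducible probe sets gave lower values in SIN1 KO than in wild type cells, but none passed the test over all probe sets. The SIN1 KO mean was lower for 17 of the 18, against 46.1% of all probe sets and 50.5% of the 25285 above background on 2 arrays or more. The exception was Adm. The genes were chosen with earlier results of these data known, so the shares beside all probe sets are a description only. RNA of whole cultures was measured, so fewer expressing cells and less RNA per cell cannot be told apart. The median difference, SIN1 KO minus wild type, was -0.93 on the log2 scale over the 18 and 0.04 over all probe sets, whose quartiles were -0.31 and 0.30. The mean was lower by 1 log2 unit or more, that is, at most 50% of wild type, for 8 of the 18 and for 5.84% of all. Among those above background the share was 8.79%. Several probe sets belong to the same gene and are not independent: by gene, 9 of 10 had a lower mean. In limma's test with Benjamini-Hochberg adjustment, 0 of the 18 were called higher and 0 lower, as were 0% of all probe sets in both directions, and the adjusted p-values of the 18 were between 0.80 and 0.93. At an unadjusted threshold of 0.05, 4 of the 18 were lower and 0 higher, against 2.57% and 3% of all probe sets. The shares were 3.82% and 4.80% of those above background.

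**Figure D2:**
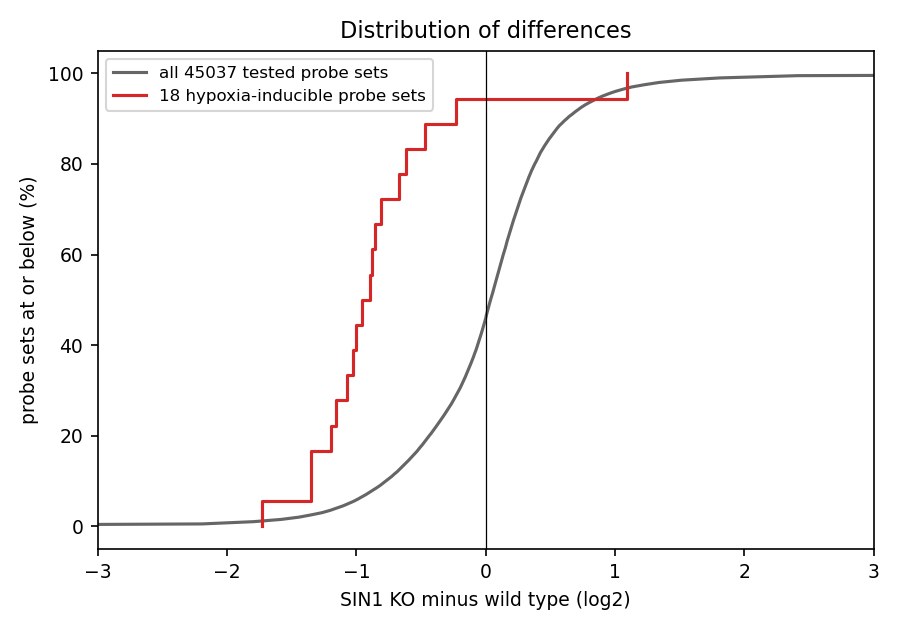
Cumulative share of probe sets (%) at or below each SIN1 KO minus wild type difference (log2), for the 18 hypoxia-inducible probe sets (red steps) and all 45037 tested (grey line). The red median lies at -0.93 and the grey one at 0.04, and the single red step above 0 is Adm.

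Separation of the genotypes array by array was less general. For 7 of the 18, both SIN1 KO arrays lay below both wild type arrays, a pattern shown by 14.9% of all probe sets. For 0 of the 18 both lay above, a pattern shown by 20.4% of all. Among probe sets above background on 2 arrays or more, the shares were 17.2% below and 19.7% above. The 7 of the 18 lying below were the probe sets of Hif1a, Egln3, Bnip3 and P4ha1 and 1 of the 3 for Ndrg1. For the other 11 the arrays of the genotypes overlapped. With arrays scaled to the hybridisation controls, 5 of the 18 lay below and 1, Adm, above, against 4.21% and 51.4% of all probe sets, and 16 of the 18 had a lower mean, against 24.6% of all. The 2 no longer below were 1416035_AT (Hif1a) and 1450976_AT (Ndrg1). The latter also overlapped after median centring and after cyclic loess.

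**Figure D3:**
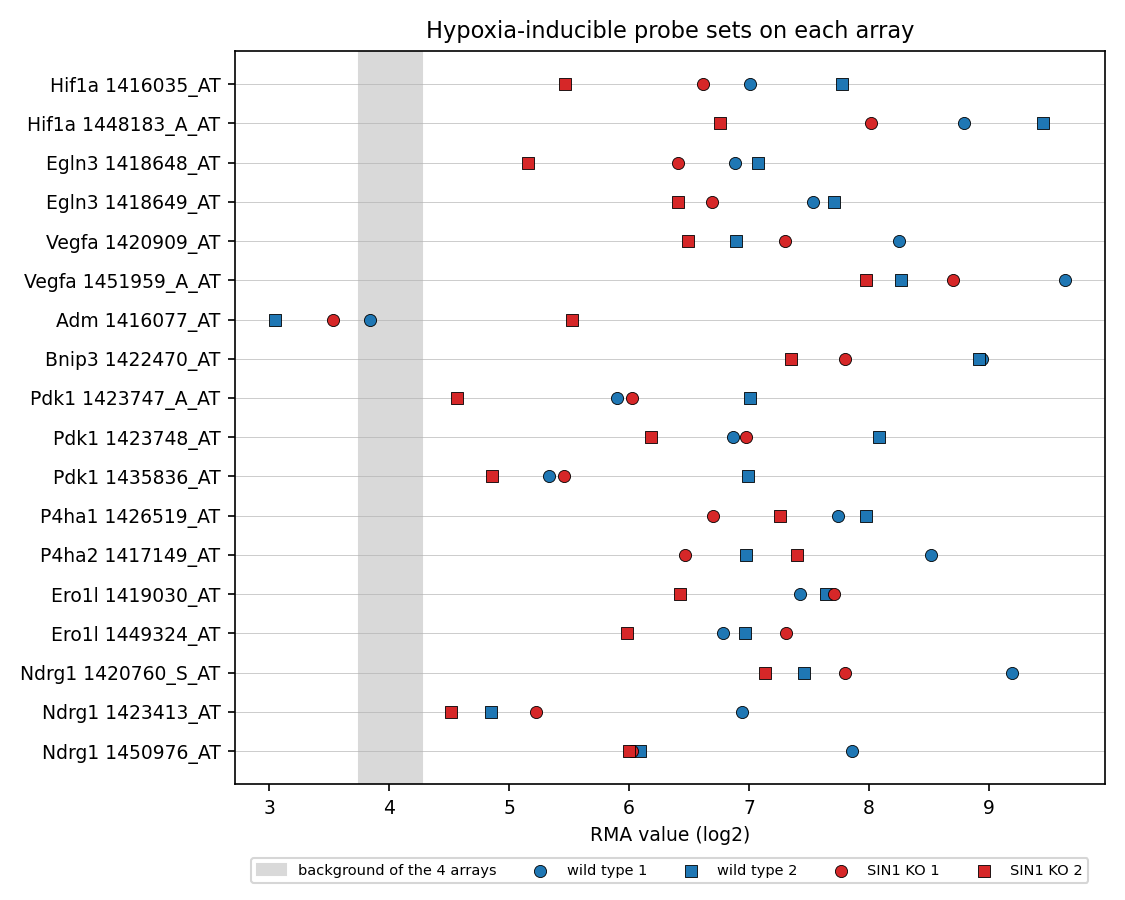
RMA value (log2) of each of the 18 probe sets on the 2 wild type arrays (blue) and the 2 SIN1 KO arrays (red), with circles for replicate 1 and squares for replicate 2. The grey band spans the backgrounds of the 4 arrays, 3.75 to 4.27, and only Adm has values in or below it.

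Hif1a, the oxygen-regulated subunit itself, was measured by 2 probe sets. Probe set 1448183_A_AT stood at 8.79 and 9.46 in wild type replicates 1 and 2 and at 8.02 and 6.76 in SIN1 KO replicates 1 and 2. Probe set 1416035_AT stood at 7.01 and 7.77 in wild type and at 6.62 and 5.46 in SIN1 KO. On both, the order of the arrays was the same, with wild type replicate 2 highest and SIN1 KO replicate 2 lowest. The difference was -1.73 for 1448183_A_AT (SE 0.54, 95% interval -3.18 to -0.29), the largest negative one among the 18, and -1.35 for 1416035_AT (SE 0.53, interval -2.76 to 0.06). Averaged over its probe sets, Hif1a had a wild type mean of 8.26 ± 0.50 (SD, n = 2) against a SIN1 KO mean of 6.72 ± 0.85 (SD, n = 2), or 34.4% of the wild type level. The gap between the nearest arrays of the genotypes was 0.58, smaller than the 1.21 between the SIN1 KO arrays, and without SIN1 KO replicate 2 the differences of 1448183_A_AT and 1416035_AT were -1.10 and -0.77.

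Egln3, the prolyl hydroxylase PHD3, marks the HIF-1 subunit for degradation and is itself induced by HIF-1. Probe set 1418649_AT stood at 7.53 and 7.71 in wild type and at 6.69 and 6.41 in SIN1 KO. Its arrays agreed closely within each genotype, and the difference of -1.07 (SE 0.27, 95% interval -1.79 to -0.35) was several times the SD of either genotype. Probe set 1418648_AT stood at 6.88 and 7.07 in wild type and at 6.41 and 5.15 in SIN1 KO. Here SIN1 KO replicate 2 lay 1.26 below replicate 1, and the difference of -1.19 had a wider interval, -2.52 to 0.13, and was -0.57 without SIN1 KO replicate 2.

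Bnip3 encodes a mitochondrial outer membrane protein that promotes removal of mitochondria by autophagy. Its probe set 1422470_AT stood at 8.94 and 8.91 in wild type and at 7.80 and 7.35 in SIN1 KO. The wild type arrays differed by 0.03, and the higher SIN1 KO array lay 1.11 below the lower wild type array, the widest gap among the 18. The difference was -1.35 (SE 0.29, 95% interval -2.12 to -0.59), or 39.1% of the wild type level. It had the lowest adjusted p of the 18 in limma's test, 0.80, and so was not called. Its promoter stretch is the one with 5 core matches, of which 2 are 1 E-box matched on both strands. The windows of Hif1a, P4ha1 and Egln3, whose genotypes also did not overlap, held 3, 3 and 1. Of the 3 for Hif1a, 2 are likewise 1 E-box. Of the genes whose genotypes overlapped, P4ha2 had 4 and Ero1l 3, while Adm, Pdk1 and Vegfa had at most 2 in a window. Ndrg1 had no window, and sites outside the windows were not looked up for any gene. A relation between core matches and the differences was not tested.

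Pdk1 is the symbol of pyruvate dehydrogenase kinase 1, which inhibits pyruvate dehydrogenase and so limits the entry of pyruvate into the citric acid cycle. It is distinct from Pdpk1, the AKT-activating kinase for which RefSeq lists Pdk1 as a synonym, and the list of probe sets gives only the symbol. Probe set 1423747_A_AT stood at 5.90 and 7.01 in wild type and at 6.03 and 4.56 in SIN1 KO. Probe set 1423748_AT stood at 6.86 and 8.08 in wild type and at 6.98 and 6.18 in SIN1 KO. Probe set 1435836_AT stood at 5.33 and 6.99 in wild type and at 5.46 and 4.86 in SIN1 KO. On all 3, wild type replicate 2 was alone at the top, SIN1 KO replicate 2 was lowest, and SIN1 KO replicate 1 lay just above wild type replicate 1. The differences were between -1.16 and -0.90, with 95% intervals that include 0, and without wild type replicate 2 they were between -0.61 and -0.17. Over its probe sets, SIN1 KO replicate 1 minus wild type replicate 1 was 0.12, while SIN1 KO replicate 2 minus wild type replicate 2 was -2.16.

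P4ha1 and P4ha2 encode catalytic alpha subunits of prolyl 4-hydroxylase, which modifies collagen in the endoplasmic reticulum. P4ha1, on 1426519_AT, stood at 7.74 and 7.97 in wild type and at 6.70 and 7.26 in SIN1 KO. The genotypes did not overlap, the difference was -0.88 (SE 0.32, 95% interval -1.73 to -0.03), and SIN1 KO replicate 1 was the lower array. P4ha2, on 1417149_AT, stood at 8.52 and 6.97 in wild type and at 6.46 and 7.40 in SIN1 KO. Wild type replicate 1 was alone high, wild type replicate 2 fell between the SIN1 KO arrays, and the interval of the difference, -0.81, ran from -2.57 to 0.95. That difference was -0.04 without wild type replicate 1 and -1.59 without wild type replicate 2. These were the only 2 of the 18 with SIN1 KO replicate 1 as the lowest array.

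Vegfa and Adm encode secreted proteins, the blood vessel growth factor VEGF-A and the vasodilator peptide adrenomedullin. Vegfa probe set 1451959_A_AT stood at 9.64 and 8.27 in wild type and at 8.70 and 7.97 in SIN1 KO. Probe set 1420909_AT stood at 8.25 and 6.89 in wild type and at 7.30 and 6.49 in SIN1 KO. Both placed the arrays in the same order, with wild type replicate 1 high and wild type replicate 2 between the SIN1 KO arrays. Their differences were -0.62 (95% interval -2.16 to 0.93) and -0.67 (-2.24 to 0.90), and without wild type replicate 1 they were 0.07 and 0.0043. Adm, on 1416077_AT, stood at 3.84 and 3.04 in wild type and at 3.53 and 5.53 in SIN1 KO. Only SIN1 KO replicate 2 exceeded the background of its array, so the fitted difference of 1.09 (95% interval -0.96 to 3.14) rested on that array, and without it the difference was 0.09. The other 17 probe sets were above background on all 4 arrays.

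Ero1l encodes the oxidase that supplies disulfide bonds in the endoplasmic reticulum. Probe set 1419030_AT stood at 7.43 and 7.64 in wild type and at 7.71 and 6.42 in SIN1 KO. Probe set 1449324_AT stood at 6.78 and 6.96 in wild type and at 7.31 and 5.98 in SIN1 KO. On both, the SIN1 KO arrays lay on either side of the wild type arrays, with replicate 1 highest of all and replicate 2 lowest. The differences of -0.47 and -0.23 became 0.17 and 0.44 without SIN1 KO replicate 2, and that of 1449324_AT was 0.09 with arrays scaled to the hybridisation controls.

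Ndrg1 encodes a stress-induced cytoplasmic protein that is also a substrate of SGK1, the kinase downstream of mTOR complex 2. Probe set 1420760_S_AT, whose suffix marks probes that can bind transcripts of more than 1 gene, stood at 9.20 and 7.46 in wild type and at 7.80 and 7.14 in SIN1 KO. Probe set 1423413_AT stood at 6.94 and 4.85 in wild type and at 5.22 and 4.52 in SIN1 KO. Probe set 1450976_AT stood at 7.86 and 6.09 in wild type and at 6.03 and 6.00 in SIN1 KO. All 3 had wild type replicate 1 alone high, by 1.74 to 2.09 over wild type replicate 2. Differences were between -1.03 and -0.86, with 95% intervals that include 0. Although 1450976_AT counts among the 7 whose genotypes did not overlap, its gap was 0.06. Without wild type replicate 1, the differences of 1420760_S_AT and 1423413_AT were 0.01 and 0.02, and that of 1450976_AT was -0.07.

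**Figure D4:**
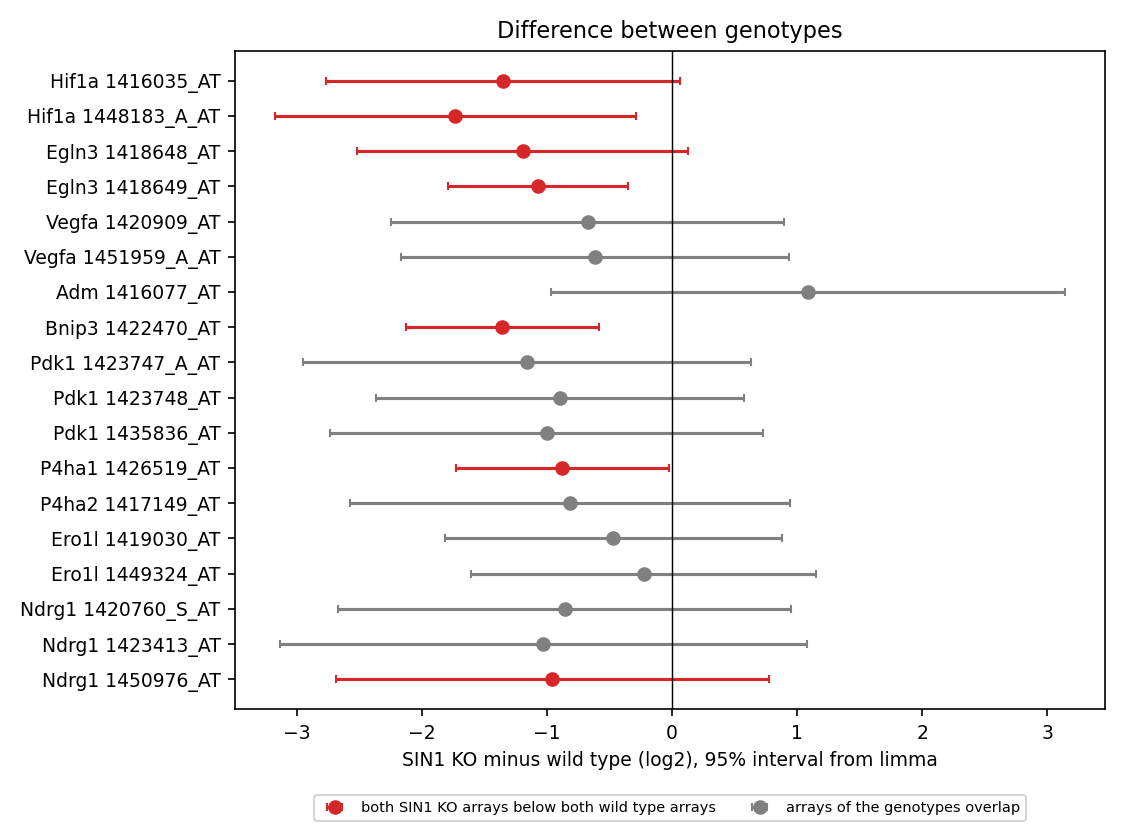
SIN1 KO minus wild type difference (log2) of each probe set, with its 95% interval from limma over 2 arrays per genotype. Red points are the 7 probe sets without overlap between the genotypes. The intervals of 4 points lie wholly below 0: 1448183_A_AT (Hif1a), 1418649_AT (Egln3), 1422470_AT (Bnip3) and 1426519_AT (P4ha1).

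The members thus varied in which arrays set their difference. SIN1 KO replicate 2 was the lowest of the 4 arrays for 15 of the 18, against 26.1% of all probe sets. Among probe sets above background on 2 arrays or more it was the lowest for 35.6%. Wild type replicate 2 was the highest for 8 of the 18 (Hif1a, Egln3, Pdk1 and P4ha1), against 28.5% of all and 33.4% of those above background. Wild type replicate 1 was the highest for 7 (Vegfa, Bnip3, P4ha2 and Ndrg1), against 18.3% of all and 17.7% of those above background. Probe sets of 1 gene always shared the same highest and the same lowest array. The wild type arrays differed by 1 log2 unit or more for 9 of the 18 and the SIN1 KO arrays for 7. The share of all probe sets with such spreads was not counted. The median standard error was 0.56 over the 18 and 0.33 over all tested. The labels do not say that a replicate number marks a shared culture or day. Between replicates 1, SIN1 KO was lower for 13 of the 18, with a median difference of -0.81, against 51.4% of all probe sets with a median of -0.02. Between replicates 2 it was lower for 16 of the 18, with a median of -1.10, against 42.0% of all with a median of 0.13. SIN1 KO replicate 1 was lower than wild type replicate 2 for 11 of the 18 (median -0.58, against 47.2% of all), and SIN1 KO replicate 2 lower than wild type replicate 1 for 17 of the 18 (median -1.44, against 44.9% of all). The median difference over the 18 was -0.62 with SIN1 KO replicate 2 left out and -1.20 with SIN1 KO replicate 1 left out. The 3′ minus 5′ difference of the Gapdh control, a measure of RNA integrity, was 0.69 and 0.72 for the wild type arrays, 1.09 for SIN1 KO replicate 1 and 0.64 for SIN1 KO replicate 2. That of beta-actin was -0.27 and -0.40 for the wild type arrays, -0.33 for SIN1 KO replicate 1 and -0.31 for SIN1 KO replicate 2. On beta-actin, SIN1 KO replicate 2 lay between the wild type arrays, and on Gapdh it lay 0.05 below the lower of them. On the transferrin receptor control the wild type arrays measured -1.90 and -1.95, below both SIN1 KO replicate 1 at -1.62 and SIN1 KO replicate 2 at -1.69. On pyruvate carboxylase the wild type arrays measured 1.63 and 2.27, with SIN1 KO replicate 1 below them at 1.43 and SIN1 KO replicate 2 between them at 1.81. The part of RNA integrity, or of the higher background of SIN1 KO replicate 2, in these differences was not tested.

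**Figure D5:**
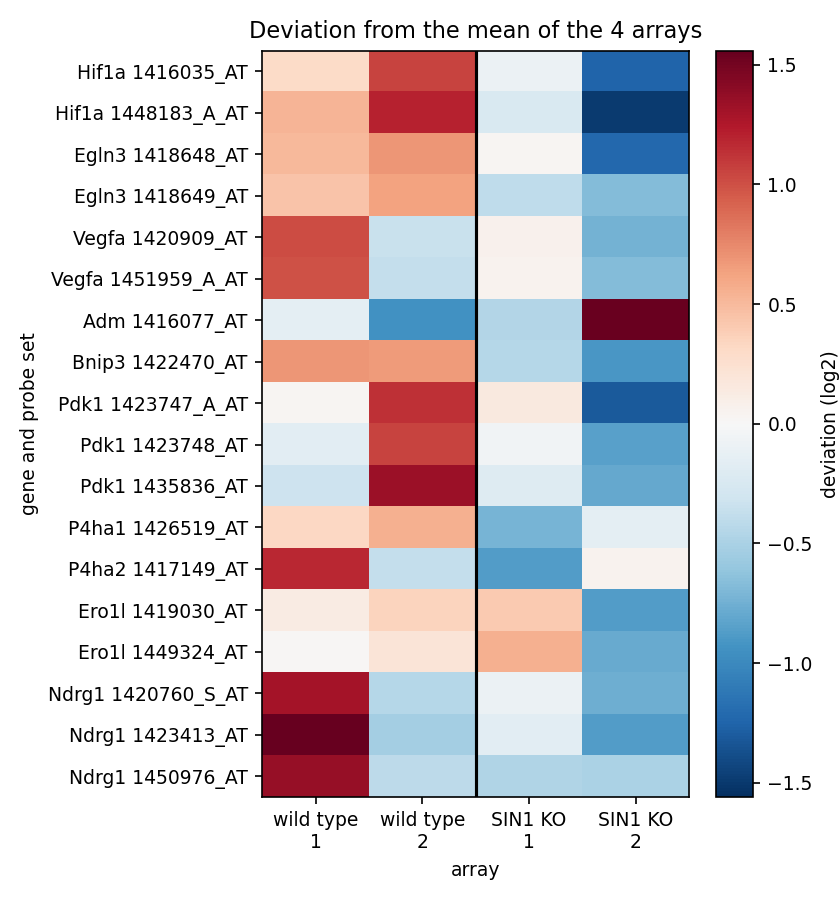
Deviation of each array (columns) from the mean of the 4 arrays (log2) for each probe set (rows), with red above and blue below the mean. SIN1 KO replicate 2 is the lowest array for 15 of the 18, while the high wild type array is replicate 2 for Hif1a and Pdk1 and replicate 1 for Vegfa, P4ha2 and Ndrg1.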

How the data were processed

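RNA from 4 cell samples was hybridised to arrays. The deposited table holds log2 values per probe set, made by the authors with RMA, per the submitters' processing notes. For the version and settings of RMA (not given in the sources used here) nothing was assumed, and the log2 scale was taken from the range of the values. No column was left unused. Probe sets were taken by the numbers of the list. The 64 control probe sets were left out of the tests. The genotypes were compared over 45037 probe sets by limma's lmFit and eBayes without trend (limma 3.58.1, R 4.3.3), with Benjamini-Hochberg adjustment over all of them and a threshold of 0.05. Residual degrees of freedom numbered 2, and the prior added 2.38. The number of arrays limits the precision, with a median standard error of 0.56 over the 18 probe sets. An exact permutation test of 2 arrays against 2 cannot go below 0.333 (two-sided) and was not used. The fit was tested on simulated data. All 18 probe sets are named. The members, lists and alternatives were chosen with earlier results of these data known. Mapkap1, the other HIF pathway genes and the cell type markers, planned for the event that a table named their probe sets, were not analysed here. Alternatives were 2 filters on low values, 3 scalings, 2 variance priors, a block on replicate number, leaving out each array and other choices among probe sets of a gene. Figures were drawn with matplotlib 3.10.9.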

Additional observations from a re-analysis of the deposited data

How the results depend on the processing

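The number of arrays and, for Adm, a signal at background limit these values. The count past the adjusted threshold was 0 in both directions under every filter, scaling, prior, block and left-out array; with 3 arrays the lone array of a genotype was assumed to vary like the others. At the unadjusted threshold 4 were lower, against 2.57% of all probe sets. With arrays scaled to the hybridisation controls, 1 of the 18 passed it in either direction, against 12.8% of all. The count was 2 with the trended prior (5.58% of all) and 3 with each filter (5.88% and 6.19% of those kept). It stayed 4 with median centring, cyclic loess and the robust prior (5.28% to 5.84% of all). The counts of probe sets whose SIN1 KO arrays lay above or below all wild type arrays were 0 and 7. They were 1 and 5 with arrays scaled to the hybridisation controls, and 0 to 2 above and 8 to 16 below when an array was left out, which loosens the rule by construction. The counts below were 10 without wild type replicate 1, 12 without wild type replicate 2, 16 without SIN1 KO replicate 1 and 8 without SIN1 KO replicate 2, where 33.2%, 28%, 31.4% and 29.4% of all probe sets met the same loosened rule. The counts above were 1, 0, 1 and 2 in the same order, where 43.2%, 30.6%, 43.7% and 29.9% of all met it. The median difference of -0.93 was -0.61 after that scaling, and -1.20 to -0.62 when an array was left out. Of 160 alternative values of single probe sets that left out no array, 1 changed sign, 1449324_AT (Ero1l) at 0.0932 after that scaling, and 0 passed the threshold. Filters, priors and blocks leave a difference unchanged in this design, so only the 3 scalings could have changed a sign. Of 72 values with an array left out, 6 changed sign, each on a different probe set. Their ranges were -1.35 to 0.0043 for 1420909_AT (Vegfa), -1.30 to 0.067 for 1451959_A_AT (Vegfa), -1.11 to 0.17 for 1419030_AT (Ero1l), -0.89 to 0.44 for 1449324_AT (Ero1l), -1.73 to 0.013 for 1420760_S_AT (Ndrg1) and -2.07 to 0.018 for 1423413_AT (Ndrg1). With the replicate block, 0 passed the adjusted threshold, and 1 of the 18 passed the unadjusted one, against 2.87% of all probe sets. Same-numbered arrays deviated in opposite directions over all probe sets (r = -0.415). A block on the crossed pairing, added once this was seen, gave 0 and 8 of the 18, against 14.1% of all at the unadjusted threshold. Of 12 other choices among probe sets of a gene, 0 moved its difference by more than the spread between arrays. Taking only probe sets above background could not move it, since every probe set of these genes lay above background on all 4 arrays. Only the choice of the brightest probe set could.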
